A study of Caenorhabditis elegans with 2 samples.

Results

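The summits described here are the 298 autosomal summits of CEH-28 binding that lay in an exon of a protein-coding gene. They were taken from the 1544 autosomal summits, of 1739 in all, of the list that the authors thresholded by IDR, the irreproducible discovery rate. A summit was a member when its base lay in a coding exon, a 5′ UTR or a 3′ UTR of a gene in the Ensembl annotation, wherever the gene started. Of the 298, 134 were coding, 45 lay in a 5′ UTR and 119 in a 3′ UTR, in 292 regions and 273 host genes. The other autosomal summits were 730 in introns, 513 between genes and 3 in exons that the annotation gives to neither coding sequence nor a UTR. At 4 members transcripts differ in class, and coding then came before 5′ UTR and that before 3′ UTR.

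Binding was measured by ChIP-seq, the sequencing of DNA that is recovered with a protein by an antibody, in whole L4 larvae of Caenorhabditis elegans with the sexes pooled. The only group was strain OP241, which has the unc-119(ed3) mutation on chromosome III and the integrated transgene wgIs241 that carries ceh-28 with an eGFP tag. It had 2 replicates, recorded as separate biosamples, and both were tied to the same control. All tissues were sampled together, so the cells in which a site was bound are not known, and the protein measured was the tagged one made by the transgene. With 1 group and no read counts, no test between classes of summit was made, and the comparisons below are counts, medians and values in each replicate. Intervals are 95% intervals that cover counting error only and take summits as independent.

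CEH-28 belongs to the NK-2 class of homeodomain proteins and is known for its part in the pharyngeal neuron M4. Transcription factors are mostly studied at promoters and enhancers, upstream of genes or in introns. A coding exon has to keep its protein reading while it holds a DNA site, whereas a 3′ UTR, the stretch between the stop codon and the end of the transcript, has more freedom of sequence. Worm genes lie close together, so that the end of a gene can be the flank of its neighbour. That neighbour either starts there, when it is read in the same direction (tandem), or ends there, when it is read the opposite way (convergent).

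The sites below let the flanks of the word be read. They are the sites nearest to summits among the highest of each class that had one within 100 bp and lay on chromosomes II to V, up to 5 per class, so they do not show how common the word was. ATCGAT, which reads alike on both strands, was the 6-base word found at most summits of this list, and it is in capitals here. Each line gives 26 bases of the RefSeq WBcel235 genome (the same assembly as ce11), plus strand. The site nearest to the coding summit was within coding sequence for W04B5.5, Y53G8AM.7, Y55F3BL.4 and set-23 and in an intron for Y39A3B.1.
W04B5.5, coding, chrIII:2411277-2411302: aatgctcaaaATCGATcgattcgaag
Y53G8AM.7, coding, chrIII:3263921-3263946: cgacgacgagATCGATgagattgaga
Y55F3BL.4, coding, chrIV:805882-805907: catcgatgttATCGATtttcgcattc
Y39A3B.1, coding, chrIII:2007088-2007113: tattgattttATCGATtttcagaacg
set-23, coding, chrIV:1603113-1603138: aatcaataaaATCGATaattacactg
pir-2, 5′ UTR, chrIII:9443604-9443629: ccgcttgccaATCGATtgcgcgtgag
plx-1, 3′ UTR, chrIV:983767-983792: tggcggaaatATCGATtttttcgaaa
H14E04.2, 3′ UTR, chrIII:2384564-2384589: cgcttgatttATCGATttattgattt
eri-5, 3′ UTR, chrIV:2396211-2396236: gtgttaaattATCGATtttttacgat
pqn-41, 3′ UTR, chrIII:1939450-1939475: ttatcgatttATCGATtttttttttg
H05C05.1, 3′ UTR, chrIII:2960956-2960981: ctggtgaattATCGATttttttcgat
Of these 11 sites 8 are followed by TTT on at least 1 strand, and those of Y53G8AM.7, pir-2 and H14E04.2 are not.

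That flank was counted over all sites after the printed ones had been seen. A site was counted when TTT followed it on either strand, which on the plus strand is TTT to its right or AAA to its left. Of the 214 sites within 100 bp of coding summits, 64.0% had this flank (interval 57.4 to 70.1), against 12.7% of all 11531 sites in autosomal coding sequence. Of the 213 sites at 3′ UTR summits 78.4% had it (72.4 to 83.4), against 48.3% of the 1308 sites in 3′ UTRs. Of the 39 sites at 5′ UTR summits 46.2% had it (31.6 to 61.4), against 28.8% of 673. At intronic summits the share was 86.7%, against 62.5% of intronic sites, and at summits between genes 62.1%, against 33.3%. In each of the 5 classes the flanked sites were thus a larger share at summits than in the class as a whole, and the gap was widest in coding sequence. A site at a coding summit can itself lie in a neighbouring intron or UTR, as described below, and what that contributes to the gap was not tested.

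Coding exons held few summits for their length, and UTRs held many. Coding sequence made up 25.7% of the autosomes and 8.68% of thresholded summits (interval 7.38 to 10.2), 6.32 per Mb. The 3′ UTRs made up 3.28% of the length and 7.71% of summits (6.48 to 9.15), 44.0 per Mb, and the 5′ UTRs 1.44% and 2.91% (2.19 to 3.88), 37.8 per Mb. Introns held 26.3 summits per Mb and the space between genes 17.4. Coding sequence was also the lowest class in each replicate, while the order of the UTR classes differed between them. Among the 1739 summits with the highest signal of each replicate, coding sequence held 7.21 per Mb in replicate 1 and 7.26 in replicate 2. The 3′ UTRs held 42.2 and 44.8 per Mb in the same order of replicates, and the 5′ UTRs 37.0 and 47.9. Exons together took 19.3% of the thresholded autosomal summits, and 29.5% of the 17356 autosomal summits of the pooled list, which includes weak ones.

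**Figure D1:**
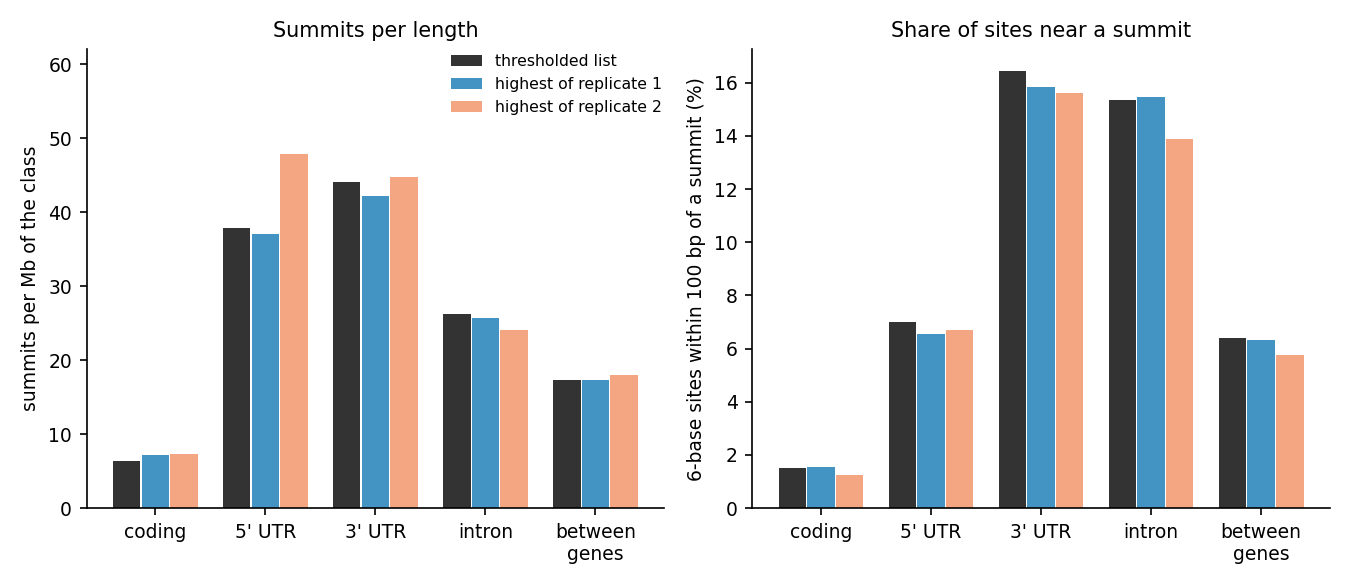
Summits per Mb of each class (left panel) and the percentage of ATCGAT sites of each class that lay within 100 bp of a summit (right panel), in the thresholded list and in the 1739 highest summits of each replicate. Coding sequence is the lowest class in all 3 lists, with 6.32 to 7.26 summits per Mb, and 3′ UTRs hold 42.2 to 44.8.

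Coding summits of the pooled list passed the threshold in a smaller share of cases than UTR summits. In that list, 8.9% of all autosomal summits passed the threshold. Of coding pooled summits 3.80% passed (interval 3.22 to 4.49), of 5′ UTR ones 9.15% (6.91 to 12.0) and of 3′ UTR ones 10.8% (9.10 to 12.8), whereas 12.3% of intronic ones did. Counted without its flank, the word was not scarce in coding sequence. Coding sequence had 0.544 ATCGAT sites per kb, 5′ UTRs 0.566 and 3′ UTRs 0.484, against 0.414 in introns and 0.297 between genes. The TTT flank was at 12.7% of coding sites, 28.8% in 5′ UTRs, 48.3% in 3′ UTRs, 62.5% in introns and 33.3% between genes. What the flank contributes to the shares below was not tested. Of all 33847 autosomal ATCGAT sites, 8.2% lay within 100 bp of a thresholded summit. In coding sequence 174 of 11531 did, 1.51%, in 5′ UTRs 47 of 673, 6.98%, and in 3′ UTRs 215 of 1308, 16.4%. In introns the share was 15.3% and between genes 6.39%. With the highest summits of replicate 1 it was 1.54% in coding sequence and 15.8% in 3′ UTRs, and with those of replicate 2 it was 1.23% and 15.6%.

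Stretches with more sites more often held a summit. With 1, 2 or 3 sites, coding stretches did so less often than 3′ UTR and intronic ones. The autosomes were cut into stretches of 201 bp, each given the class of its middle base. Sites were counted without regard to the flank. Summits of any class were counted, so a summit in a coding stretch can itself lie on a base that is not coding. Of coding stretches with 1 site 1.08% held a summit (interval 0.888 to 1.31), of those with 2 sites 9.45% (7.44 to 11.9) and of those with 3 or more 34.5% (20 of 58, 23.6 to 47.3). Of 3′ UTR stretches 3.83% with 1 site (2.78 to 5.25), 19.1% with 2 (12.3 to 28.5) and 63.0% with 3 or more (29 of 46, 48.6 to 75.5) held one. Introns gave 2.15%, 17.9% and 51.8% at the same numbers of sites. In 5′ UTRs, 4.23% of stretches with 1 site held a summit, and 3 of the 36 with 2 sites did, 8.33% (2.87 to 21.8), which is close to the coding value. Without a site the shares were 0.0451% in coding stretches, 0.330% in 5′ UTRs and 0.193% in 3′ UTRs. The highest summits of replicate 1 gave 39.7% for coding stretches with 3 or more sites and 58.7% for 3′ UTR ones, and those of replicate 2 gave 31.0% and 60.9%.

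The share of coding sites near a summit of any class did not follow their depth inside the exon, whereas the share near a coding summit was lowest at the exon edge. Sites whose middle lay 1 to 50 bp from the nearest base that is not coding were within 100 bp of a summit in 1.38% of 4936 cases (interval 1.09 to 1.74). The share was 1.53% of 3006 sites at 51 to 100 bp, 1.96% of 2247 at 101 to 200 bp and 1.19% of 1342 farther inside (0.735 to 1.93). All 4 intervals overlapped. Counted near coding summits alone, the shares were 0.810%, 1.46%, 1.96% and 1.19% in the same order of depth. At the exon edge 68 sites lay near a summit of any class and 40 near a coding one. A summit near an edge site can fall on a base that is not coding, so part of this drop follows from the classing. Coding summits lay at a median of 55 bp from an exon edge, in exons with a median length of 282.5 bp, against 170 bp for all exons of autosomal genes with 1 transcript per gene. Longer exons offer more bases for a summit, and no value for chance placement was computed.

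Most coding summits had the site. ATCGAT lay within 100 bp of 122 of 134 coding summits, 91.0% (interval 85.0 to 94.8), against 79.7% of all autosomal thresholded summits. Windows 1000 bp to either side held it in 17.9% and 14.9%, and 9.47% of all coding stretches of that length did. For 3′ UTR summits it was 94 of 119, 79.0% (70.8 to 85.3), with 23.5% and 22.7% beside them and 7.96% of all such stretches. For 5′ UTR summits it was 33 of 45, 73.3% (59.0 to 84.0), with 13.3% and 8.89% beside them and 8.95% of stretches. With 1 replicate alone, the 5′ UTR share was 63.6% (48.9 to 76.2) at the highest summits of replicate 1 and 47.4% (35.0 to 60.1) at those of replicate 2. The coding share was 86.3% (79.9 to 90.8) and 80.5% (73.6 to 86.0) in the same order of replicates. The 79.7% of all autosomal summits is a value of the pooled thresholded list only. The distance from the summit to the middle of the nearest site had a median of 18.5 bp at coding, 21.5 bp at 5′ UTR and 13.5 bp at 3′ UTR summits with a site. Around 3′ UTR summits the site was most frequent in the 20 bp just before the summit, where 40.3% had one, and around 5′ UTR summits 20 to 40 bp past it, where 24.4% had one.

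**Figure D2:**
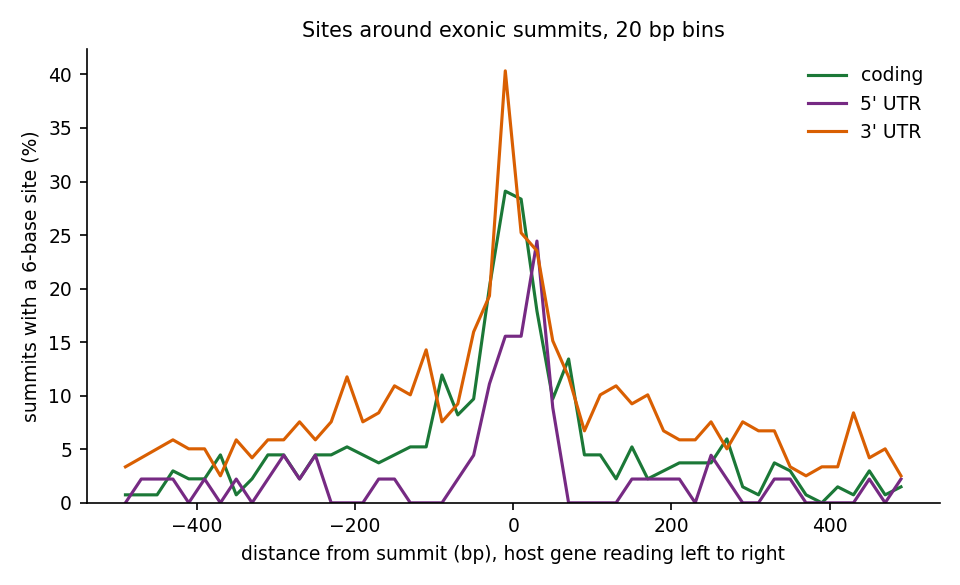
Percentage of summits with an ATCGAT site whose middle lies in each 20 bp bin, by distance from the summit along the host gene, for 134 coding, 45 5′ UTR and 119 3′ UTR summits. All 3 curves peak within 40 bp of the summit, at 29.1% for coding, 24.4% for 5′ UTR and 40.3% for 3′ UTR summits.

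The site of a coding summit was often, but not always, coding itself. Of the 122 nearest sites 85 lay in coding sequence, 28 in an intron, 8 in a 3′ UTR and 1 between genes. Of the 33 nearest sites of 5′ UTR summits 30 were in a 5′ UTR, and of the 94 of 3′ UTR summits 89 were in a 3′ UTR. A summit is 1 base, and a region spans more than most exons. The window of 100 bp either side was coding over a median of 68.7% of its bases at coding summits, 5′ UTR over 63.2% at 5′ UTR summits and 3′ UTR over 87.1% at 3′ UTR summits. The whole region lay in the summit's own class for 17 coding, 6 5′ UTR and 32 3′ UTR summits.

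Within coding sequence the sites at summits fell unevenly over the reading frame. ATCGAT read in frame from its first base encodes isoleucine and aspartate. Of 140 sites within 100 bp of coding summits and inside the host's coding sequence, 55.0% began at the first base of a codon (interval 46.7 to 63.0), 11.4% at the second (7.16 to 17.8) and 33.6% at the third (26.3 to 41.7). Of 11426 sites in autosomal coding sequence the shares were 49.0%, 25.8% and 25.2%. The second position lay below the share over all coding sites by more than its interval, and the third above it.

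Coding summits were mostly low in the list. Their pooled signal, the authors' peak height on a scale that is not stated, had a median of 75.5 (interval 71.6 to 81.2) and a maximum of 307. The median was 57.7 in replicate 1 and 21.1 in replicate 2. Of the 134, 31.3% were at or above the median signal of the whole list, against 51.4% of autosomal summits. Among the 100 highest were 0, so that the limit of 3 counts puts their share at no more than 2.24%, against 5.83% of autosomal summits. The regions of 61.9% overlapped a highest region of both replicates (interval 53.5 to 69.7), against 73.3% of autosomal summits. The hosts had a median of 7 exons. The summit was in the first exon of 20 and in the last exon of 37, and 42 summits lay in a promoter window, 1000 bp upstream to 500 bp downstream of the start of a gene, 31 of them at the start of their own host. All autosomal thresholded summits lay in such a window in 36.3% of cases.

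The highest coding summit lay in the last of 7 exons of W04B5.5 (chrIII:2411126-2411387), 11 bp before the end of the coding sequence. Its signal was 307 in the pooled list, 229 in replicate 1 and 77.7 in replicate 2, and it had 2 sites. It ranked 128th in the pooled list and stood above the other coding summits in that list. The gene downstream, mrpl-30, starts 105 bp past the end of W04B5.5 in the same direction and encodes a protein of the mitochondrial ribosome. That gene was itself a host, with a coding summit of signal 92.6 (76.3 in replicate 1 and 13.7 in replicate 2).

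The second was in exon 3 of 5 of Y53G8AM.7 (chrIII:3263778-3264027), with a signal of 271, 201 in replicate 1 and 68.4 in replicate 2. The third was in the last of 3 exons of Y55F3BL.4 (chrIV:805744-806102), with 5 sites and signals of 241, 201 and 46.5 in the pooled list, replicate 1 and replicate 2. These 2 had nearly equal signals in replicate 1. Y39A3B.1 (chrIII:2006952-2007555) held 3 coding summits, in its exons 3, 4 and 6 within 578 bp, with pooled signals of 239, 65.0 and 75.5. The summits in exons 3 and 4 shared 1 region and so the same replicate values, 185 in replicate 1 and 59.4 in replicate 2. The summit in exon 3 was over 3 times as high as the others.

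The next 4 coding summits had signals of 205 to 221. set-23 (chrIV:1603015-1603232), which encodes a SET domain protein of the histone methyltransferase family, had a summit in exon 1 of 3, with a signal of 221, 166 in replicate 1 and 53.2 in replicate 2. Transcripts differ in class at this summit, and it counts as coding by the order of classes given above. rgs-4 (chrII:12670908-12671217), which encodes a regulator of G protein signalling, had one in exon 7 of 8, 16334 bp from its start, with a signal of 205, 189 in replicate 1 and 33.2 in replicate 2. K08A2.2 (chrII:2992101-2992334) reached 211, with 164 in replicate 1 and 48.5 in replicate 2. pqn-27 (chrII:13454938-13455166), named for a prion-like stretch rich in glutamine and asparagine, reached 205, with 150 and 54.3. All 8 of these highest coding summits had at least 1 site, and all were higher in replicate 1 than in replicate 2, as were 295 of the 298 members. The median ratio over all members was 2.88 (interval 2.71 to 3.01). Of the 1538 autosomal summits with a value in both replicates 1529 were higher in replicate 1, with a median ratio of 2.74. The difference between replicates was thus one of the whole list.

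Most 5′ UTR summits sat at gene starts, which follows in part from how the class is defined. They lay at a median of 54 bp from the start of the host gene (quartiles 19 and 206) and 121 bp before the start codon, 45 of 45 in the first exon of the transcript, and 36 of 45 in the promoter window of their own host. The 5′ UTRs were long, with a median of 177 bp, against 28 bp for autosomal genes with a 5′ UTR. A long UTR offers more bases for a summit, so part of this follows from how members were chosen. The first length is also that of a transcript that holds the summit, the second that of 1 transcript per gene. Their median signal was 78.9 (interval 71.6 to 89.1), with 62.6 in replicate 1 and 21.5 in replicate 2. At or above the median of the list were 31.1%, against 51.4% of autosomal summits. The gene downstream was tandem for 31 of 45, 68.9% (54.3 to 80.5), against 54.8% of all autosomal genes.

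The 5′ UTR summits differed from coding and 3′ UTR summits in their words. AGAGAG lay within 100 bp of 18 of 45, 40.0% (interval 27.0 to 54.5), on either strand, with 8.89% in the windows beside them and 13.4% of all 5′ UTR stretches. CGTCTC lay at 31.1% (19.5 to 45.7), with 11.1% beside and 8.80% of stretches. At coding summits AGAGAG lay at 8.21% and CGTCTC at 7.46%, and at 3′ UTR summits at 12.6% and 4.20%. At summits between genes they lay at 32.4% and 26.7%. Of the 12 5′ UTR summits without ATCGAT, 11 had at least 1 of the pair, and of the 33 with ATCGAT 13 had. These 12 windows had a median GC content of 49.0%, against 39.8% at the 33. Neither trait was particular to 5′ UTRs. Between genes 61.5% of summits without ATCGAT had at least 1 of the pair, against 35.7% of those with it. At intronic summits the shares were 46.7% and 12.3%. Median GC content without and with ATCGAT was 45.5% and 37.8% between genes, and 42.0% and 30.3% in introns. The 7-base site of NK-2 class proteins, TTAAGTG or TCAAGTG, lay at 1 of 45 5′ UTR (2.22%), 6 of 134 coding (4.48%, interval 2.07 to 9.42) and 4 of 119 3′ UTR summits (3.36%, 1.31 to 8.32), against 42 of 1544 autosomal summits (2.72%). TTAAGTG lay in 1.03% and TCAAGTG in 3.56% of coding stretches, in 1.77% and 2.95% of 5′ UTR and in 1.66% and 2.15% of 3′ UTR ones.

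C17D12.5 had the highest 5′ UTR summit (chrI:11585774-11586392), 60 bp from its start. Its signal was 368, with 281 in replicate 1 and 87.5 in replicate 2, and it was the only 5′ UTR summit among the 100 highest of the pooled list. tub-2 (chrI:1873950-1874172), a gene of the Tubby family, followed with 239, 192 in replicate 1 and 45.9 in replicate 2, 54 bp from its start. pir-2 (chrIII:9443494-9443736) had 235, 178 in replicate 1 and 58.9 in replicate 2, at 36 bp. scpl-3 (chrI:4298084-4298332), which encodes a phosphatase-like protein of the small CTD phosphatase family, had 214, 149 in replicate 1 and 66.0 in replicate 2, at 34 bp. These 4 had 3, 1, 2 and 1 sites, in the order named.

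The next 2 had none within 100 bp. egl-30 (chrI:1836650-1836919), which encodes the alpha subunit of the G protein Gq, had a summit 1152 bp from the gene start in a 5′ UTR of 1546 bp. Its signal was 209, with 129 in replicate 1 and 80.1 in replicate 2. Its nearest ATCGAT was 3012.5 bp away. A second 5′ UTR summit of egl-30, 201 bp from the first, reached 71.2. cox-5B (chrI:9788660-9788819), which encodes a subunit of cytochrome c oxidase, had a signal of 141, with 99.9 in replicate 1 and 39.5 in replicate 2, at 17 bp from its start.

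The 3′ UTR summits were the strongest exonic ones. Their median signal was 105 (interval 91.7 to 126), with 87.0 in replicate 1 and 35.1 in replicate 2. Intronic summits had a median of 105, 87.5 in replicate 1 and 32.5 in replicate 2, and summits between genes 82.0, 61.8 in replicate 1 and 24.0 in replicate 2. Of the 119, 63.9% were at or above the median of the list (54.9 to 71.9), against 51.4% of autosomal and 60.5% of intronic summits. Among the 100 highest were 16, 13.4%, against 5.83% of autosomal and 8.08% of intronic summits. A highest region of both replicates was overlapped by 79.8% (71.7 to 86.1), against 73.3% of autosomal and 78.2% of intronic summits. The replicate signals followed each other more closely than at coding summits. Spearman's rho between the replicates was 0.864 over 119 3′ UTR summits, 0.459 over 134 coding and 0.514 over 45 5′ UTR summits, as a description across summits that share their libraries. The 3′ UTR summits also span a wider range of signal.

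**Figure D3:**
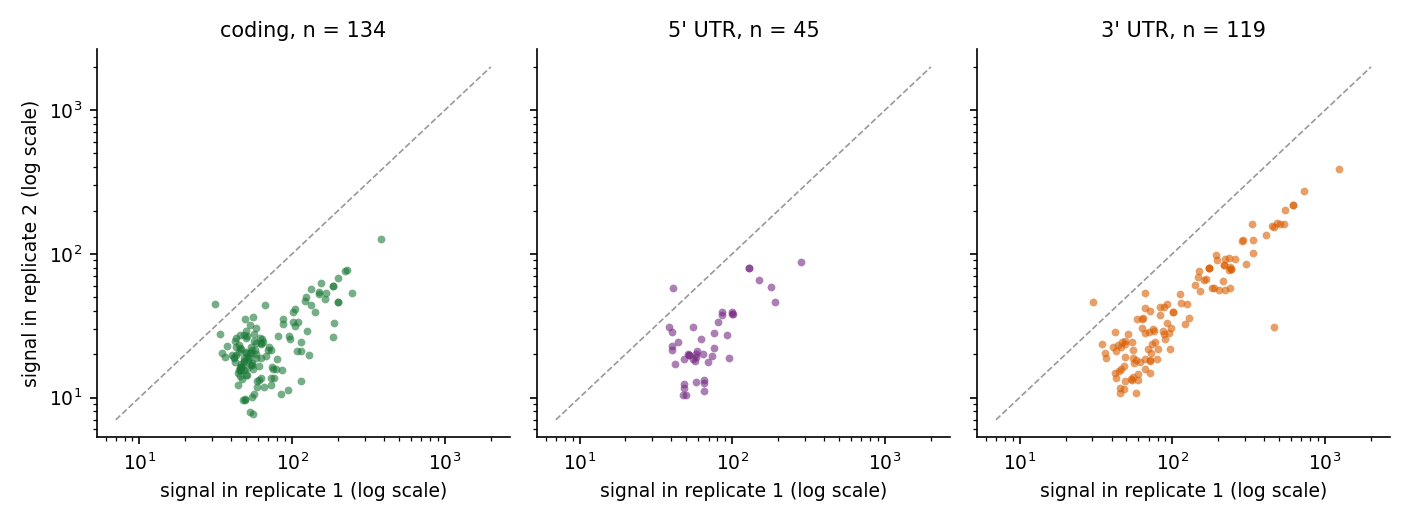
Signal in replicate 1 (x axis) and replicate 2 (y axis) at each exonic summit, on log scales of unstated unit, with a dashed line where they are equal. Nearly all points lie below the line, 295 of 298, and the 3′ UTR points reach 1226 and 391.

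More sites went with more signal at 3′ UTR summits. The median signal was 75.4 at the 25 with 0 sites, 90.2 at the 37 with 1, 120 at the 24 with 2, 123 at the 18 with 3 and 209 at the 15 with 4 or more. At coding summits the medians were 71.5, 72.7, 75.5, 91.1 and 175, at 12, 56, 45, 17 and 4 summits. Spearman's rho between number of sites and signal was 0.330 across 119 3′ UTR and 0.196 across 134 coding summits, and 0.118 across 45 5′ UTR ones. High signals also occurred without a site, up to 976 in 3′ UTRs.

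**Figure D4:**
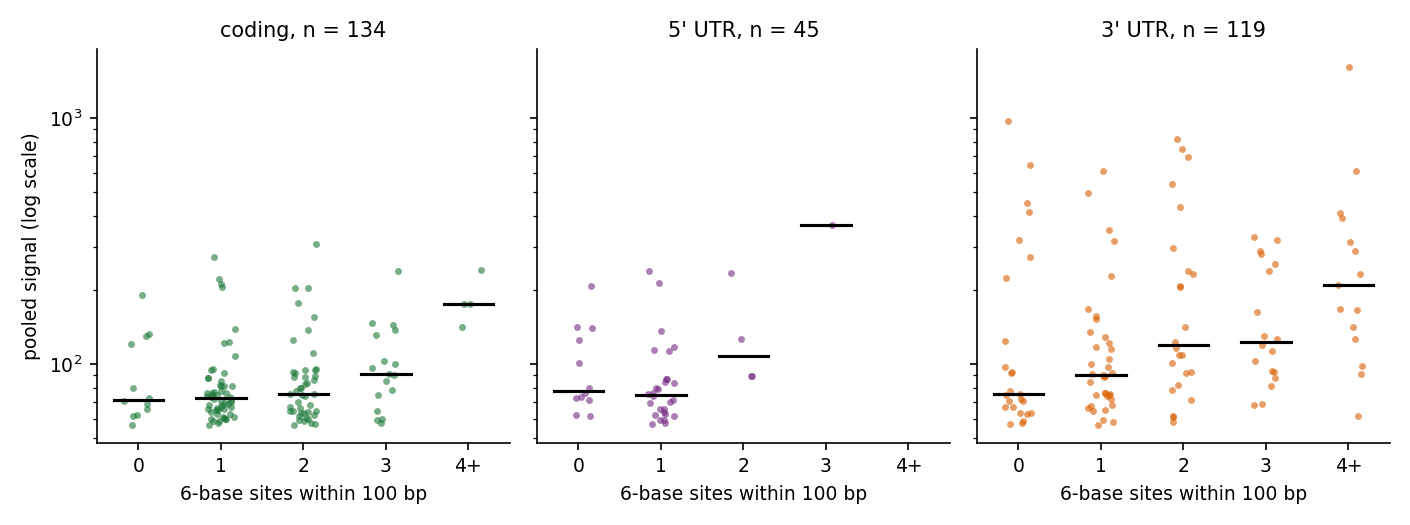
Pooled signal on a log scale of each exonic summit by its number of ATCGAT sites within 100 bp, with black lines at the medians. In 3′ UTRs the medians go from 75.4 at 0 sites to 209 at 4 or more, and the highest summit without a site reaches 976.

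The 3′ UTR summits lay near the gene end, in long 3′ UTRs of long genes. The median distance was 132 bp past the stop codon and 170 bp before the gene end (interval 119 to 263). Of the 119, 97 lay within 500 bp of that end, and 117 were in the last exon of the transcript. The 3′ UTR had a median length of 386 bp, against 117 bp over autosomal genes with a 3′ UTR. It was over 1000 bp at 20 of 119 summits, 16.8% (11.2 to 24.5), against 1.23% of genes. A long UTR offers more bases for a summit, and a 3′ UTR lies at the end of its transcript. Part of this thus follows from how members were chosen. The host genes had a median length of 6962 bp, against 1964 bp for all autosomal protein-coding genes. GC content in the 201 bp window was 29.9% at the median, against 38.8% at coding and 42.3% at 5′ UTR summits.

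The gene downstream of a 3′ UTR host was convergent in 58 of 119 cases, 48.7% (interval 39.9 to 57.6), against 45.8% of autosomal genes with a 3′ UTR. The convergent neighbours ended a median of 224.5 bp from the host's end, against 73 bp over such genes, and 17 of the 58 overlapped the host, 29.3% (19.2 to 42.0), against 41.5%. The median signal was 97.8 with a convergent and 113 with a tandem neighbour, and ATCGAT lay at 77.6% and 80.3%. A tandem neighbour began at a median of 603 bp from the host's end, against 681 bp over genes with a 3′ UTR, and 30 of 61 tandem neighbours began within 1000 bp of the summit. In all, 30 of the 119 summits lay in the promoter window of another gene. In the 31 that lay in any promoter window the median signal was 113, and in the other 88 it was 104. The nearest downstream gene of any kind was protein-coding at 99 of 119.

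Among the highest 3′ UTR summits convergent neighbours were frequent. Of the 8 highest 7 had one, and 5 of these overlapped the host. The 7 include tln-1, whose summit lay 7685 bp before the gene end and so far from that neighbour. Of the 16 highest 13 had one (81.3%), of the 29 highest 17 (58.6%) and of the 59 highest 27 (45.8%). The high share was thus limited to a few summits chosen by their signal, and it was seen after the values were known.

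**Figure D5:**
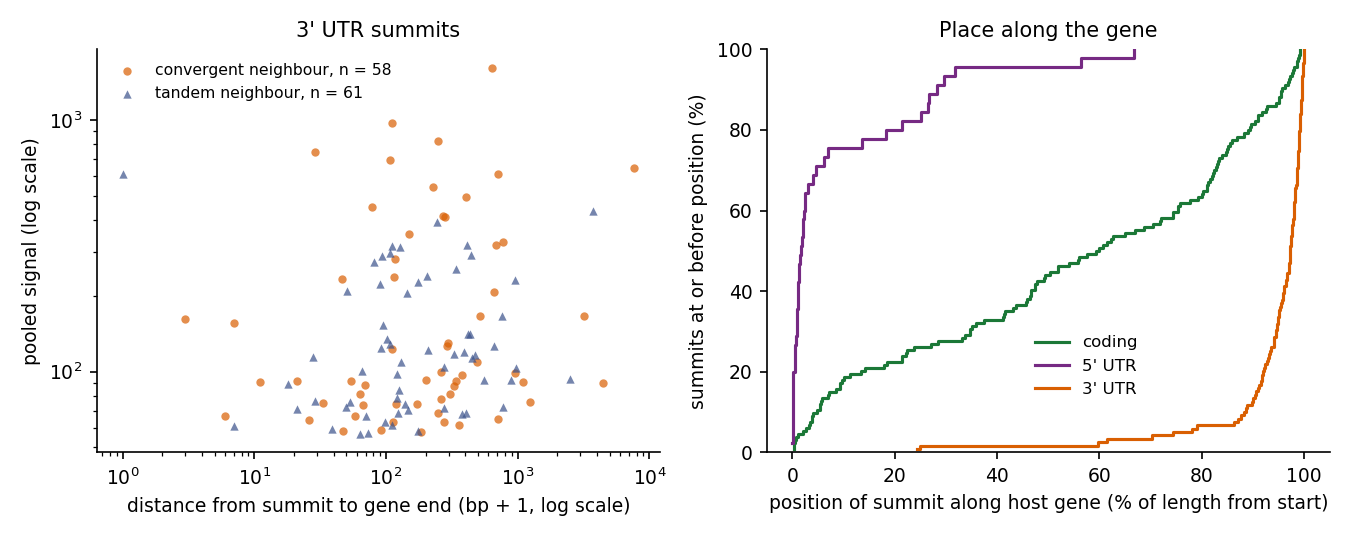
Left, pooled signal (log scale) of the 119 3′ UTR summits against distance to the end of the host gene (bp + 1, log scale), marked by the direction of the gene downstream. Right, cumulative percentage of summits by position along the host gene in percent of its length, where 5′ UTR summits lie near 0, 3′ UTR summits near 100 and coding summits have a median of 59.6.

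plx-1 held the highest exonic summit of all. It encodes a plexin, a receptor for semaphorins in cell guidance. The summit (chrIV:983477-984099) lay 46 bp past the stop codon in the last of 24 exons, 640 bp before the gene end, in a 3′ UTR of 683 bp. Its signal was 1613, with 1226 in replicate 1 and 391 in replicate 2, at rank 3 of the pooled list, and 4 sites lay within 100 bp. egrh-2, which encodes a zinc finger protein of the EGR family, overlaps the end of plx-1 by 12 bp.

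sec-23 (chrV:20104387-20105872), which encodes a subunit of the COPII vesicle coat, followed with 976, 727 in replicate 1 and 274 in replicate 2. The summit lay 10 bp past the stop codon and 110 bp before the gene end, and the nearest ATCGAT was 114.5 bp away, just outside the window. Its convergent neighbour is ncx-1, a sodium and calcium exchanger gene, which overlaps it by 53 bp. H14E04.2 (chrIII:2384336-2385111) had 825, with 618 in replicate 1 and 217 in replicate 2, and 2 sites. It ends 38 bp from its convergent neighbour H14E04.3.

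eri-5 (chrIV:2395948-2396465), which encodes a Tudor domain protein of the endogenous RNA interference pathway, had 749, with 547 in replicate 1 and 202 in replicate 2. Its summit was 28 bp before the gene end, and Y38F2AR.10 overlaps that end by 23 bp. pqn-41 (chrIII:1939273-1939721), a polyglutamine protein gene known for its part in the death of the linker cell, had 695, with 536 in replicate 1 and 163 in replicate 2. F53A3.1 overlaps its end by 25 bp, and the nearest site was 1.5 bp from the summit. Both genes held a second, coding summit, 5223 bp away in eri-5 and 22377 bp away in pqn-41. These 5 summits were higher than all coding and 5′ UTR summits in the pooled list and in each replicate.

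tln-1 (chrI:1732862-1733179), which encodes talin, a protein of integrin adhesions, had 643, with 485 in replicate 1 and 163 in replicate 2. Here the 3′ UTR belongs to a transcript whose coding sequence ends early, while the transcript itself runs on. The summit was in exon 7 of the 11 of that transcript, 7685 bp before the end of the gene, and 0 sites lay within 100 bp. H05C05.1 (chrIII:2960919-2961062) had 612, with 463 in replicate 1 and 153 in replicate 2, and 9 sites, the most at a member. Only 27.5% of the 31-base words in its window occurred once in the genome, so reads there may not map to 1 place. sre-46 (chrII:13717940-13718375), a chemoreceptor gene, had 608, with 450 in replicate 1 and 156 in replicate 2, and its summit was the last base of the gene. It was the first of the 3′ UTR summits with a tandem neighbour, the zinc transporter gene zipt-2.3, 2285 bp on.

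Of the 273 hosts 21 held 2 exonic summits each. Of all members 16 lay 199 to 246 bp from a thresholded summit of higher signal, at a median of 204.5 bp. In 8 sets, 17 members in all, summits shared the values of the same replicate regions. The replicate values of such summits describe the region and not the weaker summit.

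Few hosts fell in the gene lists, which were matched by symbol and hold only part of each class. Of 17242 autosomal protein-coding genes 273 were hosts, 1.58%. Of 76 genes of the cytosolic ribosome 0 were, which by the limit of 3 counts allows 3.95%, and 0 of 69 homeobox genes, which allows 4.35%. There were likewise 0 hosts among 68 histones (4.41%), the 81 kinase and phosphatase genes listed (3.70%), 42 translation factors (7.14%) and 39 synaptic genes (7.69%). The kinase and phosphatase list leaves out some hosts of related families, among them scpl-3, of a phosphatase-like family, and ksr-2, of a kinase-like family. The lists of 58 motor, 38 TGF-beta and Wnt signalling and 18 vacuolar ATPase genes also held 0, which allows 5.17%, 7.89% and 16.7%. Chemoreceptor genes had 5 of 1218, 0.411% (interval 0.175 to 0.957), below the share of all genes. They were led by sre-46 in its 3′ UTR, srx-12 (coding, signal 125) and sre-1 (3′ UTR, 91.5). Exons differ in length between genes, and the lists were not matched for it.

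The list of small GTPases and genes of vesicle traffic, which leaves out the host rho-1, had 5 of 106 (4.72%, 2.03 to 10.6). After sec-23 came vps-25 and vps-50, which act in endosomal sorting, each in the 5′ UTR, with signals of 140 (101 in replicate 1 and 38.2 in replicate 2) and 89.1 (69.2 and 17.8). Ubiquitin genes had 4 of 147 (2.72%), ubc-8 (coding, 88.6), hecw-1 (coding, 75.4) and ubc-1 (3′ UTR, 70.4) being highest. The list of zinc finger and other transcription factors, which leaves out the host eor-1, had 3 of 112 (2.68%). ztf-6 had a 3′ UTR summit of 495, 334 in replicate 1 and 160 in replicate 2, whose convergent neighbour is the insulin-like gene ins-36. The heat shock factor gene hsf-1 had one of 63.4 in its 3′ UTR, and ztf-3 one of 56.9 in its 5′ UTR. The share of all genes lay within the intervals of the ubiquitin and transcription factor lists and below that of small GTPases and vesicle traffic, and no list was tested.

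The other lists had 1 or 2 hosts each. Chromatin genes had set-23 and hmg-20 (coding, 91.1), of 82. Nuclear hormone receptors had nhr-131 (5′ UTR, 84.8) and nhr-61 (coding, 63.9), of 247. Adhesion and guidance genes had plx-1 and the cadherin gene cdh-10 (coding, 122), of 47, and channels and transporters had twk-46 (3′ UTR, 73.9) and lgc-37 (coding, 58.4), of 195. twk-46 was 1 of 3 members with a higher signal in replicate 2, 46.3, than in replicate 1, 30.02. Single hosts were the cuticle collagen gene col-97 (coding, 190, no site), the neuropeptide gene nlp-60 (3′ UTR, 156), the cochaperone gene dnj-20 (3′ UTR, 118), the tRNA synthetase gene hars-1 (coding, 64.8) and the splicing factor gene prp-17 (coding, 56.6), beside mrpl-30 and cox-5B.

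Coding and 3′ UTR summits lay mostly in the outer parts of chromosomes, as did autosomal summits in general. In the outer 2 of 3 equal parts lay 123 of 134 coding summits, 91.8% (interval 85.9 to 95.4), against 59.7% of coding length. Of 3′ UTR summits 94.1% lay there (88.4 to 97.1), against 59.3% of 3′ UTR length, and of 5′ UTR summits 71.1% (56.6 to 82.3), against 61.2%, which lies within that interval. Of all autosomal summits 82.9% lay there, and of intronic ones 91.2%. Coding sequence held 9.72 summits per Mb in the outer parts and 1.29 in the middle, and 3′ UTRs 69.9 and 6.36, whereas 5′ UTRs held 43.9 and 28.2. By chromosome, exons held 19.2 summits per Mb on I and 17.3 on III, the highest values. Exons of IV held 11.9, those of II 9.57 and those of V 4.75.

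The members nearest to the threshold were F44G3.7 (3′ UTR, signal 56.5), Y39B6A.30 (coding, 56.6) and Y47G6A.5 (coding, 56.6). Just below it lay rbm-26 (3′ UTR, 56.2), nep-2 (coding, 56.1) and lim-9 (3′ UTR, 56.1), which are not members.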

How the data were processed

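Peak lists of 2 ChIP-seq replicates and of both pooled were used as deposited on ce11. The signal value of each summit is the authors' peak height, with no stated scale, and it ranked summits only within a list. Replicate signals were also set side by side, as ratios and correlations, though the scales of their lists may differ. The deposited −log10 q values were 3.76 at all thresholded summits and could not rank them. Both replicates shared 1 control, per the deposited lineage notes, and the size range was 150 to 350, per the labels. Aligner and caller: not given in the sources used here. The lists hold no read counts, so depth is unknown. The ce10 lists were not used here.

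Summits were classed with Ensembl release 115 (WBcel235), coding before 5′ UTR before 3′ UTR where transcripts differ, then intron. The 3 summits in other exons (mdt-26, and 2 in Y48E1C.1) were left out. A member's replicate value is that of the highest replicate summit whose region overlaps its own by at least 1 bp. Words were sought on both strands within 100 bp of summits and in windows 1000 bp away. Shares have Wilson intervals, and medians have intervals from order statistics. The classing and counting were checked on simulated data. Members and gene lists were chosen with earlier results of these data known. The text names hosts of the 8 coding, 6 5′ UTR and 8 3′ UTR summits with the highest signal, genes with at least 3 exonic summits, up to 3 hosts per gene list, their neighbours, and 3 summits on each side of the threshold. Outside this rule it names some hosts that a gene list leaves out. The result for 1 gene named by this rule is not reported here. Alternatives covered class order, transcripts, regions, signal, each replicate, motif and promoter windows. Python 3.11.15, numpy 2.4.6, scipy 1.17.1 and matplotlib 3.10.9 were used.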

Additional observations from a re-analysis of the deposited data

How the results depend on the processing

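Of 129 alternative values, 109 stayed within the interval of the main value or, for counts, within 1.5 times of it, and 0 turned round. Members at or above the median signal numbered 132, of them 42 coding, 14 5′ UTR and 76 3′ UTR, by construction fewer. Their medians were 132, 138 and 166, the ATCGAT share of 3′ UTR summits was 85.5%, and 28.8% lay in a promoter window. With each replicate's own list, the ATCGAT share ranged from 80.5 to 86.3% at coding and from 47.4 to 63.6% at 5′ UTR summits, and the median signals from 22.9 to 55.1 (coding), 21.1 to 61.8 (5′ UTR) and 29.1 to 76.8 (3′ UTR), each list on its own scale. The lowest of each range came without replicate 1. Within 50 bp, 79.9% of coding summits had ATCGAT, and within 200 bp 87.4% of 3′ UTR summits. With 500 bp either side of a gene start, 31.2% of members lay in a promoter window. The restrictions to unique 31-base words, to UTRs of at most 1000 bp and to summits with no higher summit within 250 bp were chosen after seeing the data. They left 271, 273 and 282 members and moved no value. Unique words left 100 3′ UTR summits, with a median signal of 97.3. What moved the other values was not tested, beyond those constructions. No paired analysis was possible because both samples are of 1 group. Without read counts, depth sets no limit that can be stated.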
